A study of Mus musculus with 18 samples.

Results

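The comparison is Igf1 null against wild-type vestibular organs in late gestation, at E18.5. It rests on 6 of the 18 arrays of the series, those titled E18.5, with 3 of genotype Igf1 -/- and 3 of genotype Igf1 +/+. They were chosen by age and genotype in the titles alone. The other arrays cover the same genotypes at P15 and P90, with 3 arrays in each group. All groups share a hybrid Mf1 with 129/sv background, and every mouse was perfused with paraformaldehyde before the inner ear was taken out. The titles call the arrays of a group biological replicates, and the sources used here do not say whether 1 array holds 1 animal or several, or how much neighbouring tissue a dissection kept. Litter, sex and the part of Igf1 removed in the null allele are not given either.

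IGF1 is a secreted growth factor that binds the receptor tyrosine kinase IGF1R and signals through the insulin receptor substrates to the PI3 kinase and AKT arm and to the MAP kinase arm. Binding proteins hold it in the extracellular space and proteases release it. It promotes the growth of muscle fibres and of growth plate cartilage, and in the inner ear it supports the survival and differentiation of neurons. The vestibular organ senses head movement and gravity with hair cells, which lie among supporting cells under otoconia, are innervated by the vestibular ganglion and are enclosed by a capsule of cartilage that turns into bone.

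RNA was measured on whole-transcript Affymetrix Mouse Gene 1.1 ST arrays, which carry probes along each gene. Levels are log values whose base the sources used here do not give, quantile-normalised across all 18 arrays, and each difference is the null mean minus the wild-type mean in log units. A difference of 1 unit is a 2.72-fold change if the base is e and a 2-fold change if it is 2. After taking 1 probe set for each gene there were 19938 genes. The defining genes of the organ were present: Oc90, the main otoconial protein, lay at 8.33 to 8.56 in the 6 arrays, Coch, a protein of otic fibrocytes, at 7.05 to 7.37, and Myo7a, the hair cell myosin, at 4.85 to 5.14. All 6 arrays carried both Xist (7.31 to 8.01) and Y-linked signal (5.23 to 5.95). Some arrays of the later ages were high in both as well, such as null array 1 of P15 (7.61 and 5.69). Others were high in only 1 of these signals. Null array 1 of P90 combined high Xist (7.91) with low Y-linked signal (2.00), and wild-type array 3 of P90 showed the reverse (1.86 and 6.32). Whether each E18.5 array pools animals of both sexes was not tested. In bulk tissue, fewer cells of a type and less RNA in each cell cannot be told apart.

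The 3 null arrays were not alike. Over all genes null array 1 correlated at 0.984 to 0.986 with the wild-type arrays and at 0.975 and 0.973 with null arrays 2 and 3, while the wild-type arrays correlated at 0.986 to 0.988 with each other. Null arrays 2 and 3 correlated at 0.979 with each other and at 0.972 to 0.974 with the wild type. The median gene lay 0.086 from the wild-type mean in null array 1, 0.178 in null array 2 and 0.175 in null array 3. In the wild-type arrays it lay 0.082 to 0.085 away, each array measured from the mean of the other wild-type arrays. The main counts and gene lists below are therefore also given with null arrays 2 and 3 left out, where only null array 1 stands for the genotype.

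Igf1 itself was lower in the null arrays without being absent. Its level was 7.02, 7.07 and 6.98 in wild-type arrays 1 to 3 and 6.40, 6.88 and 6.51 in null arrays 1 to 3. The genotypes did not overlap, and null array 2 came closest to the wild type. The difference of -0.43 ± 0.12 (SE) had an adjusted p of 0.16 in limma, so Igf1 did not pass the threshold at this normalisation. With the array medians subtracted instead, it was -0.68 ± 0.12 with an adjusted p of 0.04. Where the probes lie relative to the deleted part was not analysed here, so the remaining signal does not check the labels. With null arrays 2 and 3 left out the difference was -0.63 (adjusted p = 0.28).

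Of 25 measured genes among 26 IGF ligands, receptors, adaptors, binding proteins and their proteases, none passed an adjusted p of 0.05. At an unadjusted p under 0.05, 1 was higher and 4 were lower in the null arrays, where 6.49% of all genes were higher and 6.06% lower. Igfbp6, a binding protein that prefers IGF2, came nearest, at 5.12, 5.19 and 5.07 in the wild-type arrays and 5.47, 5.60 and 5.49 in the null arrays. All null arrays lay above all wild-type arrays, by 0.39 ± 0.07 on average (adjusted p = 0.06). Igfbp5, a binding protein abundant in bone, had a difference of -0.22 ± 0.10, and Igfbp1, a binding protein controlled by insulin in the liver, one of -0.33 ± 0.15. Htra1, a protease that can cut IGF binding proteins, had a difference of -0.20 ± 0.09. The insulin receptor gene Insr had a difference of -0.11 ± 0.08 and the adaptor Irs1 one of -0.08 ± 0.08.

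In the intracellular arms the counts of lower genes were too small to set apart from the 6.06% of all genes that were lower. Among 18 measured kinase pathway genes, 2 were lower and none higher at an unadjusted p under 0.05: Pik3r1, the regulatory subunit of PI3 kinase, with a difference of -0.25 ± 0.07, and Pik3r3, a second regulatory subunit, with -0.24 ± 0.10. Pik3r1 lay at 6.98, 7.01 and 6.91 in the wild-type arrays and at 6.74, 6.76 and 6.66 in the null arrays, without overlap, and its adjusted p was 0.16. Of 22 measured targets of the FOXO transcription factors, which AKT keeps out of the nucleus, none was higher and 2 were lower at that level. The atrophy genes among them pointed to opposite sides, at 0.33 ± 0.17 for Trim63 and -0.23 ± 0.12 for Fbxo32. Over all 86 measured genes of the IGF lists, 2 were higher and 9 lower at that level, against 6.49% and 6.06% of all genes. Their median difference was -0.04. With null arrays 2 and 3 left out it was -0.00. With the array medians subtracted it was -0.20, where the median of all genes was -0.12 and 4849 of them, against 2501, had an unadjusted p under 0.05. Of 33 measured cell cycle genes none reached an unadjusted p under 0.05 in either direction, and their median difference was -0.04.

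In all, 16 genes passed an adjusted p of 0.05, which is 0.0802% of the genes tested, with 12 higher (0.0602%) and 4 lower (0.0201%) in the null arrays. At an unadjusted p under 0.05 there were 2501 genes (12.5%), 1293 higher (6.49%) and 1208 lower (6.06%). Of the 12 genes that rose, 7 were in the list of muscle genes used below: Actn3, Tnnc2, Tnni2, Mylpf, Myl4, Cav3 and Popdc2. The count of 16 depended on the arrays: it was 387 without null array 1, 6 without null array 2 and 37 without null array 3, and it was 0, 4 and 9 without wild-type arrays 1, 2 and 3. With both null arrays 2 and 3 left out, 1 gene (Klrg1) passed. With the array medians subtracted, 13 genes passed, 5 higher and 8 lower, against 12 and 4 after quantile normalisation.

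**Figure D1:**
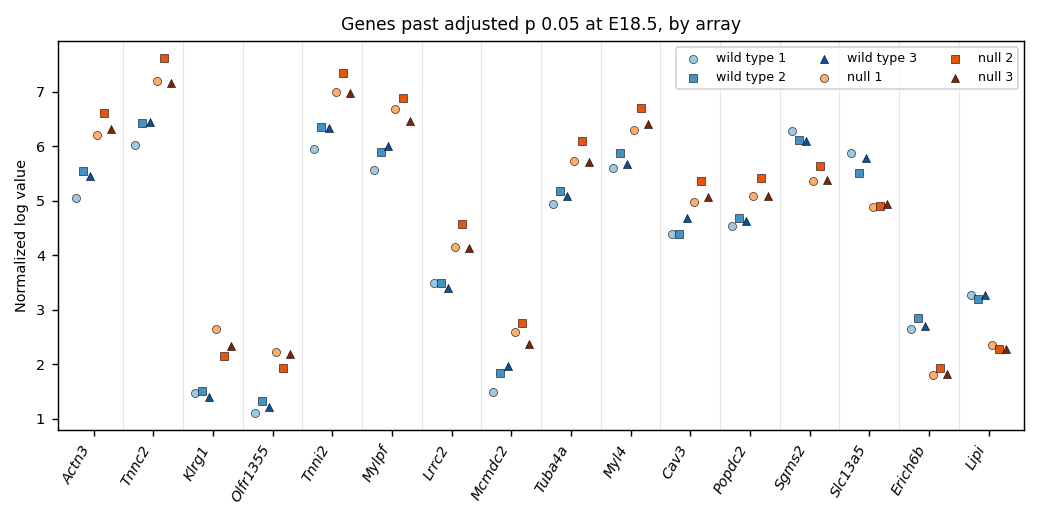
Normalised log values of the 16 genes past an adjusted p of 0.05 in each of the 6 arrays of E18.5, ordered by the difference between genotypes, with wild-type arrays in blue and null arrays in orange to brown. In every gene shown the 3 null arrays lie on 1 side of the 3 wild-type arrays, and the 4 genes at the right are the ones that fell.

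Of the muscle genes that passed, 5 encode parts of the contractile filaments and their anchors, and Cav3 and Popdc2 encode membrane proteins. Tnnc2, the calcium-binding troponin C of fast fibres, lay at 6.02, 6.42 and 6.45 in wild-type arrays 1 to 3 and at 7.19, 7.61 and 7.15 in null arrays 1 to 3. Its null arrays all lay above its wild-type arrays, and the rise of 1.02 ± 0.15 (adjusted p = 0.025) is 2.77-fold in natural logs or 2.03-fold in log2. Tnni2, the inhibitory troponin of the same fibres, had values of 5.95, 6.35 and 6.33 against 6.99, 7.35 and 6.97 and rose by 0.89 ± 0.15 (adjusted p = 0.046). Actn3, the alpha-actinin that anchors thin filaments in the Z disc of fast fibres, had values of 5.04, 5.55 and 5.46 against 6.21, 6.60 and 6.32 and rose by 1.03 ± 0.17 (adjusted p = 0.043). In all 3 genes wild-type array 1 was the lowest and null array 2 the highest.

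Both called myosin light chains followed the same order at the extremes. Myl4, the atrial and embryonic light chain, lay at 5.59, 5.87 and 5.68 in the wild type and at 6.30, 6.70 and 6.41 in the null, a rise of 0.76 ± 0.10 (adjusted p = 0.013). Mylpf, the phosphorylatable light chain of fast fibres, lay at 5.56, 5.90 and 6.01 and at 6.68, 6.88 and 6.47, a rise of 0.85 ± 0.13 (adjusted p = 0.028). At the membrane, Cav3, the muscle caveolin, had values of 4.39, 4.39 and 4.68 against 4.98, 5.36 and 5.07 and rose by 0.65 ± 0.10 (adjusted p = 0.025). Popdc2, a membrane protein of striated muscle that binds cyclic AMP, had values of 4.54, 4.68 and 4.63 against 5.09, 5.41 and 5.09 and rose by 0.58 ± 0.10 (adjusted p = 0.046).

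The other muscle genes stood on the same side. Of 118 listed genes of skeletal and striated muscle 115 were measured, and 108 had a higher mean in the null arrays, where 45.6% of all genes did. At an unadjusted p under 0.05, 87 of the 115 were higher (75.7%, against 6.49% of all genes) and none was lower. In 80 of them every null array lay above every wild-type array (69.6%, against 7.95% of all genes). Over both directions the arrays of the genotypes did not overlap in 19.7% of all genes. Their median difference was 0.58, against -0.02 over all genes, which is 1.79-fold in natural logs or 1.5-fold in log2.

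By role, the median difference was 0.50 for 9 myosin heavy chains, 0.63 for 7 myosin light chains and their kinases, 0.61 for 16 thin filament genes and 0.74 for 21 genes of the Z disc and M band. It was 0.58 for 19 genes of membrane excitation and calcium release, 0.67 for 16 genes of muscle energy supply and 0.33 for 27 regulators of muscle formation. Each of these medians was 0.33 or more with the array medians subtracted and with the values as deposited. The regulators had the lowest median and the Z disc genes the highest, and no test of the difference between the lists was made.

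Among the myosin heavy chains, which are the motors of the thick filament, no gene passed the threshold. Myh3, the embryonic form, lay at 6.52, 7.26 and 6.91 in the wild-type arrays and at 7.58, 7.75 and 7.35 in the null arrays (0.66 ± 0.21, adjusted p = 0.23). Myh8, the perinatal form, lay at 7.40, 7.88 and 7.69 and at 8.28, 8.42 and 8.13 (0.62 ± 0.18, adjusted p = 0.21). Myh7, the slow form, lay at 5.07, 5.59 and 5.21 and at 6.11, 6.41 and 5.52 (0.72 ± 0.22, adjusted p = 0.22). Embryonic, perinatal and slow forms thus had differences of like size, and in Myh7 null array 3 lay inside the wild-type range. The main actin of skeletal muscle, Acta1, had a difference of 0.61 ± 0.16 (adjusted p = 0.16).

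In the Z disc, Ldb3, a PDZ and LIM protein that binds alpha-actinin, had values of 4.77, 5.38 and 5.13 against 5.98, 6.24 and 5.69 (0.88 ± 0.16, adjusted p = 0.06). Csrp3, the muscle LIM protein, had a difference of 0.97 ± 0.19 and Myoz1, a calcineurin-binding protein of fast fibres, one of 0.81 ± 0.17. In excitation, Cacng1, a subunit of the muscle calcium channel, had values of 4.87, 5.09 and 5.02 against 5.52, 6.05 and 5.71 (0.77 ± 0.14, adjusted p = 0.06). Casq1, the calcium buffer of the sarcoplasmic reticulum, had a difference of 0.90 ± 0.19 and Atp2a1, the calcium pump of fast fibres, one of 0.78 ± 0.17. None of these 6 genes had an array of one genotype within the range of the other. Ache, which ends transmission at the neuromuscular junction and also occurs in neurons, had a difference of 0.55 ± 0.10 (adjusted p = 0.06).

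Enzymes of muscle energy supply came close to the threshold without passing it. Eno3, the muscle enolase, lay at 6.43, 6.79 and 6.83 in the wild type and at 7.44, 7.70 and 7.24 in the null (0.78 ± 0.14, adjusted p = 0.06). Ckm, the muscle creatine kinase, lay at 6.58, 7.20 and 7.18 and at 7.85, 7.99 and 7.66 (0.84 ± 0.18, adjusted p = 0.08). Ak1, the adenylate kinase of muscle cytosol, had a smaller difference of 0.46 ± 0.09 (adjusted p = 0.06), and Pygm, the glycogen phosphorylase of muscle, one of 0.80 ± 0.16. Pgam2, the muscle phosphoglycerate mutase, lay at 5.27, 5.97 and 5.98 and at 6.63, 6.97 and 6.32 (0.90 ± 0.20, adjusted p = 0.098).

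Among the regulators, Myod1, a transcription factor that commits cells to the muscle lineage, lay at 4.61, 4.74 and 4.79 in the wild-type arrays and at 5.13, 5.49 and 5.32 in the null arrays (0.60 ± 0.11, adjusted p = 0.055). Mymk, the fusion protein of myoblasts, had a difference of 0.50 ± 0.14 and Chrng, the fetal subunit of the acetylcholine receptor, one of 0.42 ± 0.10. Des, the muscle intermediate filament, had a difference of 0.81 ± 0.18. Of the 27 regulators 13 were higher and none lower at an unadjusted p under 0.05. Outside the muscle list, the 10 genes of smallest p after the called ones included Yipf7 (0.76 ± 0.13, adjusted p = 0.052) and Apobec2, a muscle member of the cytidine deaminase family (1.01 ± 0.18, adjusted p = 0.054).

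The arrays of each genotype differed in their muscle signal too. Wild-type array 1 was the lowest array for 89 of the 115 genes, and null array 2 the highest for 94. Measured from the wild-type mean, the median muscle gene lay at -0.20, 0.16 and 0.04 in the wild type and at 0.54, 0.83 and 0.37 in the null. The wild-type arrays thus spanned 0.36, and the lowest null array lay above the highest wild-type array. Null array 1, which resembled the wild type over all genes, carried the shift as well. It lay above all wild-type arrays in 101 of the 115 genes, against 5075 of all 19938 genes. With null arrays 2 and 3 left out, the median difference of the muscle genes was 0.54. Without wild-type array 1 the median was 0.47, and without null array 2 it was 0.44.

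**Figure D2:**
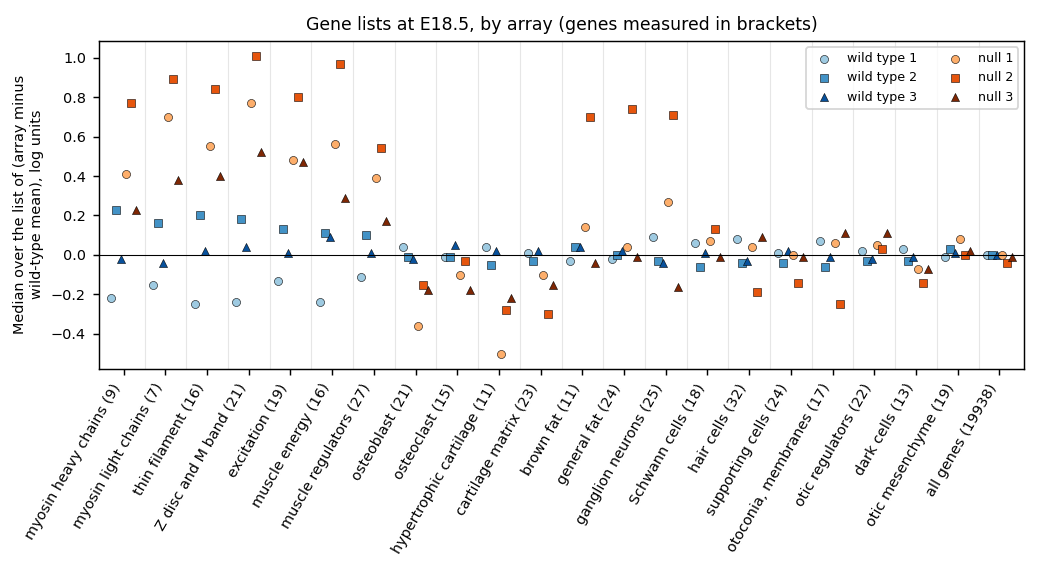
For each gene list, the median over its genes of an array's log value minus the wild-type mean, drawn for each of the 6 arrays of E18.5, with the number of genes measured in brackets. In the muscle lists at the left all 3 null arrays lie at or above the highest wild-type array (for the muscle genes together 0.37 to 0.83 against -0.20 to 0.16), while the fat and ganglion neuron lists are highest in null array 2.

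Muscle promoters often carry the letters CAGCTG, a form of the E-box that MYOD1 and related factors bind, and the A and T rich MEF2 site, bound by the MEF2 factors. In RefSeq promoters of build GRCm38.p6, the 250 bases before the start of transcription were searched on both strands. Of 85 muscle list genes with an entry, 37 held CAGCTG (43.5%), against 14.7% of 27025 genes with an entry, and 14 held the MEF2 site (16.5%, against 3.42%). Some genes have several starts, and a gene counts once if any window matched. Of the 7 muscle genes that rose, 5 had an entry, 2 of them held CAGCTG (Mylpf and Cav3) and none held the MEF2 site. A match of letters is a description of these windows.

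The windows of Mylpf (chr7:127211358-127211607, plus strand), Cav3 (chr6:112459255-112459504, plus strand), Tnnc2 (chr2:164779735-164779984, minus strand) and Pgam2 (chr11:5803797-5804046, minus strand) are shown from 5′ to 3′ with matches in capitals. Mylpf and Cav3 rose and hold CAGCTG, Tnnc2 rose and holds neither motif, and Pgam2 is the list member of smallest p that holds both. The CAGCTG begins 51 bases before the start in Mylpf, 106 in Cav3 and 125 in Pgam2, where the MEF2 site begins 80 bases before it.
Mylpf: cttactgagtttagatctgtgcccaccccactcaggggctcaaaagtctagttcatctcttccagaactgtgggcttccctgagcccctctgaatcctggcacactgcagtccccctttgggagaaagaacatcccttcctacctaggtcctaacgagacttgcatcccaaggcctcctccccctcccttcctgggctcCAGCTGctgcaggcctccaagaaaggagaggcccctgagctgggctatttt
Cav3: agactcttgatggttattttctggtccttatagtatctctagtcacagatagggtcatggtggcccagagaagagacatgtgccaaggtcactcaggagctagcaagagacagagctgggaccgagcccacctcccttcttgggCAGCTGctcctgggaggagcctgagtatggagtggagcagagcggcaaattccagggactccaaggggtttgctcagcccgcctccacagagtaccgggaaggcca
Tnnc2: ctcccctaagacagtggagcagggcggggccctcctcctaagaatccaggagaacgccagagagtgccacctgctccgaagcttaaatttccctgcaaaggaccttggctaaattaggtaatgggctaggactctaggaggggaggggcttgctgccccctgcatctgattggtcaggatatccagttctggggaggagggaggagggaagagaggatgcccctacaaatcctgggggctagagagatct
Pgam2: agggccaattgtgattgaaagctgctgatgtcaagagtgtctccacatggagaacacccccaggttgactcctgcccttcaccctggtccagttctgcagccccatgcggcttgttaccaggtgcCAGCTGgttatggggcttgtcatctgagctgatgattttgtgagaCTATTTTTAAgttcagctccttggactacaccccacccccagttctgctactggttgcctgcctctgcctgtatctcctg

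Genes of bone and cartilage lay on the other side. Of 75 listed genes 68 were measured, and 56 had a lower mean in the null arrays. At an unadjusted p under 0.05, 22 were lower (32.4%, against 6.06% of all genes) and none was higher, and none passed an adjusted p of 0.05. In 36 of them (52.9%, against 11.7% of all genes) every null array lay below every wild-type array. The median difference was -0.19, or 1.21-fold in natural logs. It was -0.36 with the array medians subtracted and -0.39 with the values as deposited, where the median of all genes moved to -0.12 and -0.15. The wild-type arrays lay within 0.05 of each other by this measure, at 0.02, -0.03 and 0.01, and the null arrays lay at -0.20, -0.22 and -0.17. With null arrays 2 and 3 left out the median was -0.20.

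The widest differences of single genes were in hypertrophic cartilage, the last stage of the chondrocyte before bone replaces it. Col10a1, its defining collagen, lay at 7.48, 7.18 and 7.28 in wild-type arrays 1 to 3 and at 5.03, 6.40 and 5.27 in null arrays 1 to 3. The wild-type arrays lay close together and the null arrays far apart, all below them, with a difference of -1.75 ± 0.40 (adjusted p = 0.11). Mmp13, the collagenase that clears that cartilage, lay at 5.69, 5.87 and 5.60 and at 3.91, 4.13 and 4.61. Its difference of -1.51 ± 0.28 (adjusted p = 0.062) is 4.51-fold in natural logs or 2.84-fold in log2, and over all settings its adjusted p ran from 0.038 with the array medians subtracted to 0.29 with null arrays 2 and 3 left out. Panx3, a channel of hypertrophic chondrocytes and osteoblasts, lay at 6.53, 6.31 and 6.49 and at 5.65, 5.61 and 5.44 (-0.88 ± 0.24, adjusted p = 0.16). Of 11 measured genes of this list 7 were lower at an unadjusted p under 0.05 (against 6.06% of all genes). The median difference of the list was -0.28. Ihh (-0.22 ± 0.12), Pth1r (-0.19 ± 0.13) and Mef2c (0.03 ± 0.12) were among those that did not reach that level.

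Of 21 measured genes of osteoblasts, which build and mineralise bone, 8 were lower at an unadjusted p under 0.05 (against 6.06% of all genes). None was higher at that level. By mean, 17 were lower and 4 higher in the null, with a median difference of -0.28. Those named here are among the ones with the widest differences. Ibsp, the bone sialoprotein, lay at 6.83, 7.13 and 6.69 in the wild type and at 5.04, 6.05 and 5.95 in the null (-1.20 ± 0.24, adjusted p = 0.078). Dmp1, a matrix protein of osteocytes, lay at 5.17, 4.96 and 4.95 and at 3.93, 3.90 and 4.29 (-0.99 ± 0.20, adjusted p = 0.078). In both genes the null arrays stayed clear of the wild type, and null array 1 was the lowest array for Ibsp, as it was for Col10a1. Phospho1, a phosphatase that starts mineral formation, had a difference of -0.68 ± 0.14, and Phex, an endopeptidase of phosphate handling, one of -0.68 ± 0.15. Sp7, the transcription factor that commits cells to the osteoblast, lay at 5.52, 5.57 and 5.54 and at 5.10, 5.08 and 5.19 (-0.42 ± 0.11, adjusted p = 0.16). The arrays of each genotype lay close together and the genotypes apart.

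The other skeletal groups had smaller differences. Of 23 measured genes of cartilage matrix 4 were lower at an unadjusted p under 0.05, and 22 had the lower mean in the null. In 16 of the 23 every null array lay below every wild-type array (against 11.7% of all genes), and with null arrays 2 and 3 left out their median of -0.18 was -0.10. The abundant matrix genes had small differences: Col2a1 had -0.16 ± 0.15, Acan, the aggrecan core protein, -0.16 ± 0.15 and the type IX collagen gene Col9a1 -0.33 ± 0.17, all 3 without overlap of the genotypes. Ucma, a secreted protein of cartilage, had one of -0.60 ± 0.16, with 7.18, 7.15 and 7.34 in the wild-type arrays against 6.60, 6.81 and 6.47. Comp, a matrix protein that binds collagen, had one of -0.43 ± 0.12. Of 15 osteoclast genes, whose cells resorb cartilage and bone, 4 were lower at that level (against 6.06% of all genes). The list was divided, with 9 genes of lower and 6 of higher mean in the null and a median difference of -0.10. Atp6v0d2, a subunit of the osteoclast proton pump, had a difference of -0.59 ± 0.19. Dcstamp, the osteoclast fusion protein, had one of -0.52 ± 0.19. Of 26 general collagen and matrix genes 1, Fmod, was lower at that level (-0.36 ± 0.12), but 23 had the lower mean in the null. In 12 of them every null array lay below every wild-type array (against 11.7% of all genes), and their median difference was -0.11. A low shift was thus not confined to the skeletal lists.

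**Figure D3:**
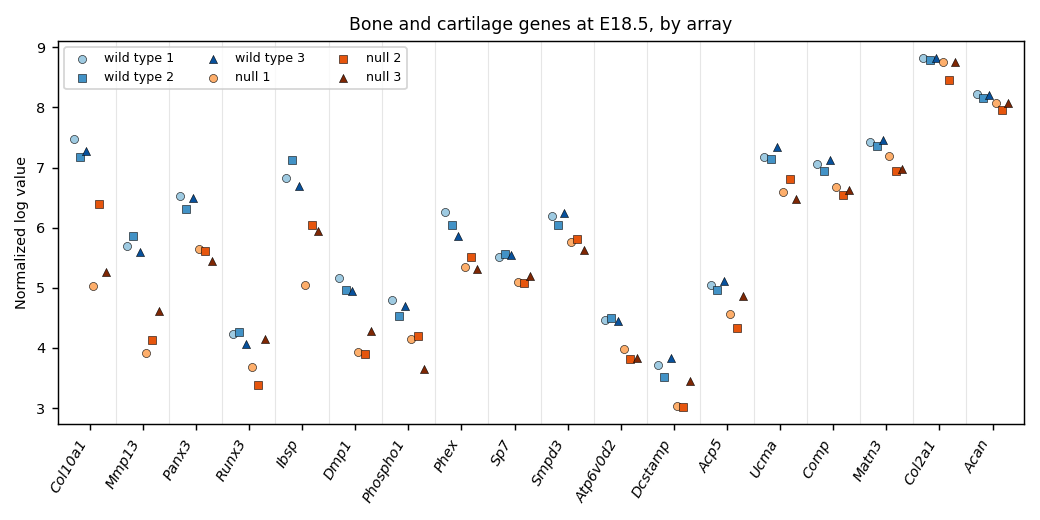
Normalised log values of bone and cartilage genes in each of the 6 arrays of E18.5, from hypertrophic cartilage at the left through osteoblast and osteoclast genes to cartilage matrix at the right. The null arrays lie below the wild type on average, with differences of -1.75 in Col10a1 and -1.51 in Mmp13, and of -0.16 in Col2a1 and Acan.

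The promoter of Mmp13, which had the lowest p of these genes, is known to be bound by RUNX2 in bone and cartilage. Its 250 bases before the start (chr9:7272264-7272513, plus strand, GRCm38.p6) hold the RUNX core letters TGTGGT once, on the minus strand and shown here in capitals, beginning 118 bases before the start.
Mmp13: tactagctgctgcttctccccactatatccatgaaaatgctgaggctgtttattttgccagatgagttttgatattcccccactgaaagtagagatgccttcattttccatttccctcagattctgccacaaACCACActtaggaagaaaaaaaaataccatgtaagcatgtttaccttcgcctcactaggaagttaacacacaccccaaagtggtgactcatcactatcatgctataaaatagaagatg
Of 47 skeletal list genes with a RefSeq entry, 10 held TGTGGT on either strand (21.3%), against 15.9% of all genes with an entry and 21.2% of the muscle list.

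The called genes outside the muscle list were of several kinds. Sgms2, a sphingomyelin synthase active in bone mineralisation, fell by 0.70 ± 0.10 (adjusted p = 0.022), from 6.27, 6.11 and 6.09 in the wild type to 5.36, 5.64 and 5.37 in the null. Slc13a5, the sodium and citrate cotransporter, which osteoblasts also use, fell by 0.81 ± 0.14 (adjusted p = 0.043), from 5.87, 5.50 and 5.79 to 4.89, 4.90 and 4.93. Tuba4a, an alpha-tubulin, rose by 0.77 ± 0.12 (adjusted p = 0.028), from 4.94, 5.17 and 5.09 to 5.72, 6.09 and 5.70. Lrrc2, a leucine-rich repeat protein, rose by 0.82 ± 0.13 (adjusted p = 0.033), from 3.49, 3.49 and 3.39 to 4.15, 4.57 and 4.13. Tuba4a and Lrrc2 were highest in null array 2, as the muscle genes were.

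The remaining 5 called genes had a mean over all arrays under 3.09, the level below which 20% of genes lie. Erich6b lay at 2.65, 2.84 and 2.69 against 1.79, 1.92 and 1.82 and fell by 0.88 ± 0.11, and Lipi, a lipase, lay at 3.26, 3.20 and 3.27 against 2.35, 2.28 and 2.28 and fell by 0.94 ± 0.15. Klrg1, a receptor of lymphocytes, lay at 1.46, 1.50 and 1.40 against 2.64, 2.15 and 2.34 and rose by 0.92 ± 0.12. Olfr1355, an olfactory receptor, rose by 0.90 ± 0.13 and Mcmdc2, a meiotic gene, by 0.81 ± 0.13. The lymphocyte genes were divided: of 19 measured, Klrg1 included, 2 were higher and 3 lower at an unadjusted p under 0.05, with Il7r at -0.69 ± 0.15 and the defining B cell gene Cd79a at 0.03 ± 0.25. After the called genes, those of smallest p with a lower level included Ptgfr, the prostaglandin F receptor (-0.74 ± 0.14, adjusted p = 0.06).

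Genes of the vestibular organ itself had small differences. Of 143 listed genes of hair cells, supporting cells, otoconia, otic regulators, dark cells, otic mesenchyme and melanocytes 134 were measured, and none passed an adjusted p of 0.05. At an unadjusted p under 0.05, 8 were higher (against 6.49% of all genes) and 9 lower (against 6.06%), close to those shares of 134. Their median difference was -0.03, and -0.13 with the array medians subtracted, where all genes lay at -0.12. With null arrays 2 and 3 left out it was 0.04, so its sign rests on those arrays. For the defining genes the differences were 0.00 ± 0.11 for Myo7a, -0.08 ± 0.14 for Otof, the synaptic otoferlin, -0.05 ± 0.14 for Sox2 in supporting cells, 0.04 ± 0.21 for Oc90 and -0.01 ± 0.15 for Otol1, the otoconial collagen. With 3 arrays in each group and standard errors of 0.1 to 0.2, far wider differences in ear genes also stayed short of the adjusted threshold. In limma the adjusted p was 0.11 for Tmie, at -0.49 ± 0.12, and 0.19 for Chrna9, at 0.61 ± 0.17. Changes of that size or smaller in ear genes are thus not excluded.

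Single ear genes had larger differences. Tmie, a part of the mechanotransduction complex of hair cells, lay at 4.41, 4.22 and 4.28 in the wild type and at 3.90, 3.75 and 3.77 in the null (-0.49 ± 0.12, adjusted p = 0.11). All its null arrays, null array 1 included, lay below the wild type. The transduction channel genes Tmc1 and Tmc2 had differences of -0.47 ± 0.21 and -0.42 ± 0.15, where null array 1 lay at 3.44 and 3.41, nearer the wild type than null array 2 at 2.65 and 2.89. Chrna9, the acetylcholine receptor subunit of hair cells, had one of 0.61 ± 0.17. Lgr6, a receptor of supporting cells that act as progenitors, lay at 4.22, 4.06 and 4.19 against 4.06, 3.51 and 3.48, so that only null arrays 2 and 3 were clear of the wild type. Sall4, a zinc finger regulator of early development, lay at 3.07, 2.97 and 3.16 against 3.38, 3.63 and 4.03 (0.61 ± 0.13, adjusted p = 0.078). Smpx and Xirp2, found in hair cells and also in muscle, had differences of 0.67 ± 0.14 and 0.53 ± 0.19.

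Mitochondrial genes stood slightly higher in null arrays 1 and 2. Of 29 measured genes of oxidative phosphorylation 11 were higher (against 6.49% of all genes) and none lower at an unadjusted p under 0.05, and none passed the adjusted threshold. The median gene lay 0.17, 0.27 and 0.05 above the wild-type mean in null arrays 1 to 3 and at 0.00, -0.06 and 0.05 in the wild-type arrays, so that null array 3 was within the wild-type range. With null arrays 2 and 3 left out the median difference was 0.17. Their median difference was 0.15 after quantile normalisation, but -0.03 with the array medians subtracted and -0.06 with the values as deposited, against -0.12 and -0.15 for all genes. Sdhc, a membrane subunit of succinate dehydrogenase, lay at 6.31, 6.22 and 6.44 in the wild type and at 6.67, 6.89 and 6.77 in the null (0.46 ± 0.08, adjusted p = 0.056). Cyc1, the cytochrome c1 of complex III, had a difference of 0.35 ± 0.09. The median difference of the muscle genes was 0.58 in the same arrays, and their part in the mitochondrial difference was not tested.

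Fat genes were highest in null array 2. Ucp1, the uncoupling protein of brown fat, lay at 2.39, 2.25 and 2.67 in the wild type, at 2.79 and 2.39 in null arrays 1 and 3, and at 6.47 in null array 2. That array lay 3.68 above the next, which is 39.6-fold in natural logs or 12.8-fold in log2. Cidea, a lipid droplet protein, lay at 5.67 there and at 2.44 to 3.60 in the others, Adipoq, the adipocyte hormone adiponectin, at 5.33 against 1.69 to 3.28, and Gpd1, the glycerol phosphate dehydrogenase, at 6.66 against 3.91 to 4.94. Null array 2 was the highest array for 27 of 35 fat genes. The mean level of these genes was 5.29 in it and 4.35 to 4.49 in the others, and their median difference of 0.31 was 0.06 without it. The 1 array with the most fat signal was also the 1 with the most muscle signal.

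The ganglion genes followed a related pattern. Stmn2, a microtubule regulator of neurons, lay at 5.67, 5.42 and 5.34 in the wild type and at 6.13, 6.85 and 5.37 in null arrays 1 to 3. Prph, the peripheral neuron filament, lay at 5.01, 4.81 and 4.93 and at 5.53, 6.05 and 4.34. Both were thus highest in null array 2, above the wild type in null array 1 and within or below it in null array 3. Over 25 ganglion genes the median distance from the wild-type mean was 0.27, 0.71 and -0.16 in null arrays 1 to 3, and the median difference of 0.23 became 0.08 without null array 2, 0.49 without null array 3 and 0.27 without both. No ganglion gene passed the adjusted threshold. At an unadjusted p under 0.05, 4 were higher (against 6.49% of all genes) and 2 lower (against 6.06%). The 2 lower genes, Calb1 (-0.42 ± 0.15) and Calb2 (-0.70 ± 0.25), went the other way in null array 2. There they lay at 3.10 and 2.92, below all wild-type arrays.

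Among the few genes with a gap of 1 unit or more, null array 3 stood apart mainly by low values. Over all 19938 genes it was less one-sided, below all wild-type arrays in 7711 and above them in 6686. In 17 genes (0.0853% of all) it lay at least 1 unit below the nearest of the other 5 arrays. In 2 (0.01%) it lay at least 1 unit above. Null array 2 lay that far above in 15 genes (0.0752%) and below in none. The other 4 arrays did so in at most 2 genes above and 4 below. The genes low in null array 3 included Gabra2, a GABA receptor subunit (1.91 against 3.21 to 4.08), Rgs7, a neuronal regulator of G protein signalling (1.18 against 2.31 to 3.15), Hoxb2, a hindbrain homeobox gene (2.54 against 3.65 to 4.01), and Adipoq (1.69 against 2.86 to 5.33). These genes were picked for that gap, so the gaps are a description.

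Null arrays 2 and 3 also shared a set of genes that null array 1 lacked. In 132 genes both lay at least 0.5 above all other arrays and in 99 both lay at least 0.5 below, and no other pair of the 6 arrays reached more than 15 in either direction. Mir346, a microRNA gene, lay at 7.09 and 7.18 in the pair and at 5.74 to 5.83 in the other 4 arrays, Nlrc5, an immune regulator, at 7.11 and 7.14 against 5.83 to 6.01, and Krt14, a keratin of basal epidermis, at 5.45 and 5.36 against 3.90 to 4.45. Mir148a lay at 1.66 and 1.21 against 3.04 to 3.59, and Calb2, the calretinin of hair cells and neurons, at 2.92 and 2.74 against 3.79 to 3.90. None of these 5 passed an adjusted p of 0.05. MicroRNA genes made up 18 of the 132 genes above (13.6%) and 9 of the 99 below (9.09%), where they are 1.5% of all genes. Genes of keratin-associated proteins of hair made up 7 of the 132 (5.3%, against 0.221% of all genes) and none of the 99, and zinc finger genes named Zfp made up 9 of the 99 (9.09%, against 1.74%) and none of the 132. No gene of the muscle, skeletal or fat lists was in either set, but sets of 132 and 99 genes are too small for that absence to set these lists apart. The nervous list had 1 gene in each set. The ear list had 3 of the 99 below (3.03%) and none of the 132. These classes were counted after the genes had been seen.

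**Figure D4:**
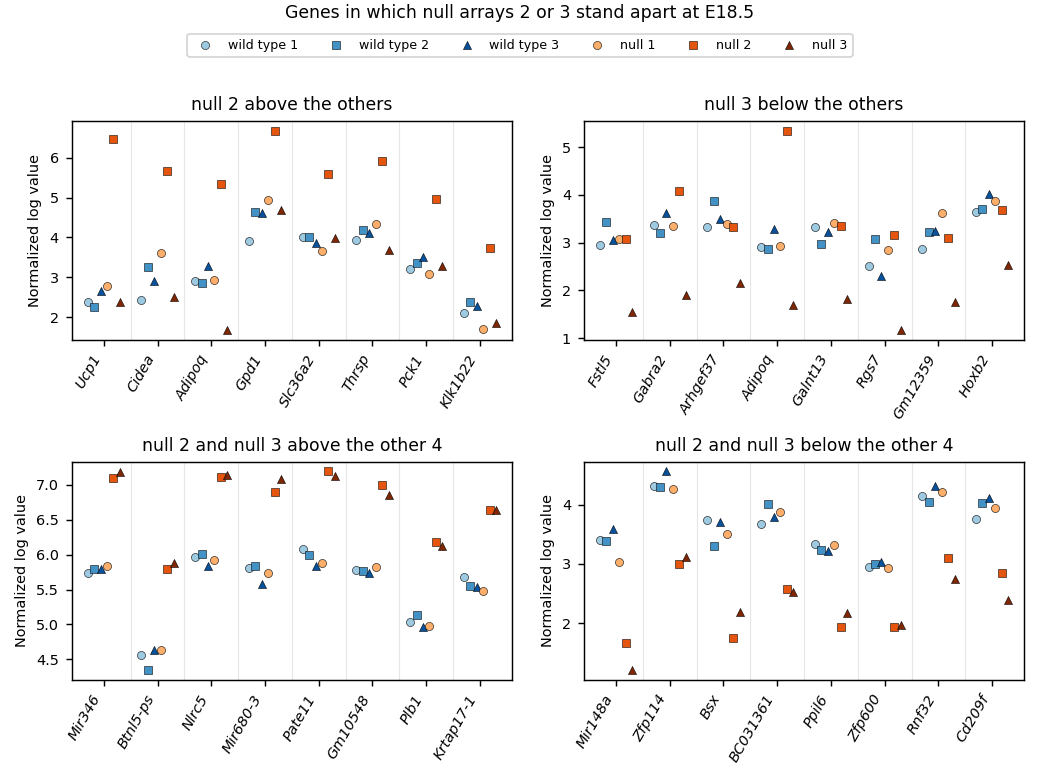
Normalised log values in the 6 arrays of E18.5 for the 8 genes with the widest gap in each of 4 patterns, which chose the genes. Null array 2 reaches 6.47 in Ucp1 where the others stay at or below 2.79, and null arrays 2 and 3 lie together in the lower panels while null array 1 lies with the wild type.

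The difference at E18.5 was set against the mean of the differences at P15 and P90, which come from other arrays. In limma, 91 genes (0.456%) passed an adjusted p of 0.05 in that test, 71 with a more positive difference at E18.5 (0.356%) and 20 with a more negative one (0.1%). Of the 16 genes called at E18.5, all but Klrg1 (adjusted p = 0.069) were among them, but the contrast holds the same E18.5 difference that chose these genes, so this overlap is largely built in. Leaving out 1 array of E18.5 moved the count of 91 to between 7, without wild-type array 1, and 723, without null array 1. It was 17 without null array 2 and 42 without wild-type array 3, and it was 0 with null arrays 2 and 3 both left out. The sexes were not balanced at P90, where Xist lay at 1.86 to 3.33 in the wild-type arrays and at 7.42 to 7.91 in the null arrays. With a score of sex-linked signal in the fit the count was 17 (12 positive and 5 negative), and with the replicate number as a block it was 34.

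Muscle genes were 34 of the 71, which is 29.6% of the 115 measured. Their median difference was 0.58 at E18.5, -0.27 at P15 and -0.18 at P90. Over all genes the median was -0.02, 0.01 and 0.01 at these ages. Changes of sign were not counted over all genes, and muscle genes moved together within arrays, so the genes are not independent. Of the 108 muscle genes with a positive difference at E18.5, 88 had a negative one at P15, 98 at P90 and 82 at both. Actn3, for instance, had 1.03 at E18.5, -0.85 at P15 and -0.28 at P90, and the contrast of 1.59 ± 0.21 had an adjusted p of 0.0081. Yipf7, which is not in the list, had 0.76, -0.70 and -0.41, and Ampd1, the AMP deaminase of muscle, had 0.94, -1.10 and -0.11. No muscle gene passed an adjusted p of 0.05 at P15 or at P90 taken alone.

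The skeletal genes had a median of -0.19 at E18.5, 0.12 at P15 and 0.03 at P90, and 2 of 68 were among the 20 negative genes. They were Ucma, with -0.60, 0.42 and 0.39, and Smpd3, a sphingomyelinase of bone mineral formation, with -0.42, 0.12 and 0.18. Mmp13 had -1.51, -0.14 and 0.34, and its contrast of -1.61 had an adjusted p of 0.055. Igfbp6 had 0.39, -0.02 and -0.08 and passed this test (0.44 ± 0.09, adjusted p = 0.042). Igf1 had -0.43, -0.41 and -0.11, and its contrast of -0.18 did not pass (adjusted p = 0.52).

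**Figure D5:**
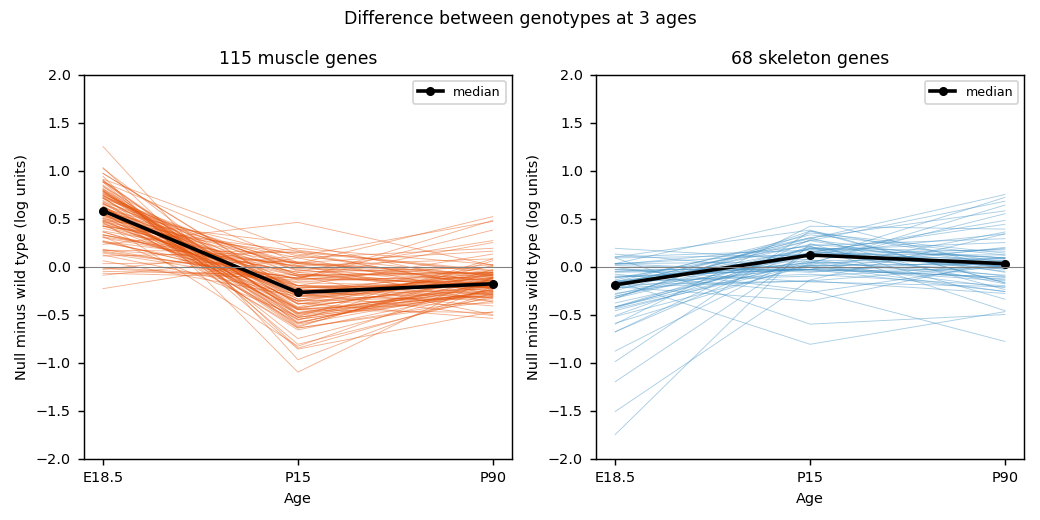
Null minus wild type in log units for each of 115 muscle genes (left) and 68 skeletal genes (right) at E18.5, P15 and P90, with 1 thin line for each gene and the median in black. The muscle median goes from 0.58 to -0.27 and -0.18, and the skeletal median from -0.19 to 0.12 and 0.03; lines join ages for reading and no animal was followed.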

How the data were processed

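The values are deposited log values, 1 for each of 28853 probe sets in each of 18 Affymetrix arrays, from 1 table by the authors. The sources used here name neither their summarisation nor their log base, and array intensities were not used. The highest value of 10.03 makes natural logs more likely than log2. The values were quantile-normalised over all arrays. Gene symbols came from the platform annotation, updated through RefSeq: 21789 probe sets had 1 symbol, 1621 had several and 5443 were not listed. Each of 19938 genes kept its probe set with the highest mean.

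All 18 arrays in 6 groups entered 1 limma fit (limma 3.58.1, R 4.3.3; lmFit, eBayes, Benjamini-Hochberg over all genes, called at an adjusted p under 0.05), with contrasts for E18.5 and for E18.5 against the later ages. With 3 arrays a group, p-values measure the spread between these samples, and an exact permutation of 1 gene could not go below 0.1. The fit was tested on simulated data, where it estimated the sizes of known changes without bias but called only some of them. Groups and replicate numbers came from the titles. After normalisation, deviations of same-numbered E18.5 arrays from their group means correlated at -0.05, 0.05 and -0.00. The deposited medians of same-numbered arrays lay close, at 3.88, 4.31 and 3.90 in null arrays 1 to 3 and 3.94, 4.27 and 3.97 in the wild type. Xist fell and Y-linked signal rose from array 1 to array 3 in both genotypes. Whether the numbers pair the samples is thus not settled, and the main fit did not pair them. Lists, members and rules were chosen with earlier results of these data known. Genes named are Igf1 and the IGF lists, all called genes, the 10 next in each direction, up to 6 of smallest p in each list with its defining markers, the 10 with the widest gap in null arrays 2 and 3, and the 10 of smallest p against the later ages. Exceptions, chosen after their values were seen, are those of the null array 2 and 3 pair (Mir346, Nlrc5, Mir148a), Tmc1 and Ampd1. Alternatives covered normalisation, probe sets, dim genes, variance model, replicate block, sex-linked signal and left-out arrays.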

Additional observations from a re-analysis of the deposited data

Results flagged for a closer look

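Over all genes, 91 of 19938 (0.456%) had a difference between genotypes at E18.5 that differed from the later ages. In 28 of 63 genes checked, many of them chosen for a small p at E18.5 or in this same contrast, the difference between genotypes at E18.5 differed from the mean difference at P15 and P90 by limma's test of that contrast at an adjusted p under 0.05. Groups of 3 arrays were too small to look for single outlying samples. The contrast was positive in 21 genes. In the muscle list it was 1.59 for Actn3, 1.41 for Tnnc2, 1.23 for Tnni2, 1.19 for Mylpf, 1.02 for Myl4, 0.70 for Cav3 and 0.85 for Popdc2, all called at E18.5. It was 1.18 for Cacng1, 1.21 for Ldb3, 1.07 for Eno3, 0.59 for Ak1, 1.32 for Yipf7 and 1.23 for Apobec2, which were not called at E18.5. Outside the muscle list it was 1.32 for Yipf7, 1.23 for Apobec2, 1.06 for Lrrc2, 0.98 for Tuba4a and 1.03 for Olfr1355. It was 0.79 for Mcmdc2, 0.60 for Sdhc, 0.71 for Gatm, 0.44 for Igfbp6 and 1.12 for Fcrla.

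The contrast was negative in 7 genes: -1.03 for Erich6b, -0.83 for Sgms2, -1.11 for Lipi, -0.94 for Slc13a5, -0.89 for Ptgfr, -0.80 for Gm9222 and -1.27 for Clec4n. Clec4n, a C-type lectin of macrophages, had -0.39 at E18.5, 0.18 at P15 and 1.58 at P90, and Fcrla, an Fc receptor-like gene of B cells, had 0.51, -0.35 and -0.88. Both thus had their widest difference at P90.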

How the results depend on the processing

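The 16 genes called at E18.5 and the 91 called against the later ages moved with the settings. The counts were 0 and 0 with the values as deposited (1874 and 3197 genes at an unadjusted p under 0.05 in limma), 0 at E18.5 with quantile normalisation within the E18.5 arrays (2377 unadjusted) and 0 with only the 6 arrays of E18.5 (2341 unadjusted). They were 27 and 140 with dim genes left out, 55 at E18.5 with an intensity trend and robust eBayes, 3 and 34 with the replicate block, and 10 and 17 with a sex-linked score. With 1 array left out they ranged from 0 to 387 and from 7 to 723, and with null arrays 2 and 3 left out they were 1 and 0. With array medians subtracted they were 13 and 104 (56 positive and 48 negative). No result changed sign among 395 values for 25 genes. Of 912 list medians over all settings 802 moved by less than the spread between replicates and 110 by more, most of them as deposited (36) or with medians subtracted (31). The muscle median ranged from 0.44 to 0.69, with 55 to 97 of 115 genes higher at an unadjusted p under 0.05, and the skeletal median from -0.39 to -0.17, with 15 to 36 of 68 lower. The cause of these shifts was not tested. Lone null arrays were assumed to vary like the other groups. Standard errors of 0.1 to 0.2 and signal near background limit dim genes most.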

Other observations

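Sterol synthesis and stress genes tended to lie lower in the null arrays, and none passed an adjusted p of 0.05 in limma. Of 16 measured sterol synthesis genes 15 had the lower mean, where 45.6% of all genes had the higher one. Their median difference was -0.11, and their median gene lay at -0.06, -0.09 and -0.23 from the wild-type mean in null arrays 1 to 3. In 3 every null array lay below every wild-type array (against 11.7% of all genes), and in 1 above. At an unadjusted p under 0.05, 1 was lower (against 6.06% of all genes): Lss, the lanosterol synthase (-0.33 ± 0.12). The median of 20 measured stress and hypoxia genes lay at -0.06, -0.08 and -0.11 from the wild-type mean in null arrays 1 to 3. In the wild-type arrays it lay at -0.05, -0.02 and 0.03. Of these genes 4 were lower at an unadjusted p under 0.05 (against 6.06% of all genes) and 7 had every null array below every wild-type array (against 11.7%). Among them was Car9, a carbonic anhydrase induced by low oxygen, at 3.74, 3.80 and 3.97 in the wild type and 3.27, 3.20 and 3.50 in the null (-0.52 ± 0.12). Cldn5, the tight junction protein of endothelium, had a difference of 0.33 ± 0.09 while Pecam1 had -0.12 ± 0.12. Rtl1, an imprinted gene, had one of 0.48 ± 0.13. Alas2, the haem synthesis enzyme of red cell precursors, lay at 7.12 in null array 2 and at 5.11 to 6.03 in the other arrays.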
